A study of Mus musculus with 24 samples.

Results

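The transcripts of the LIF receptor and Stat3 pathway were followed through 8 genes: Lif, Lifr, Il6st, Jak1, Stat3, Socs3, Pim1 and Pim3. They were selected by symbol as members of this pathway, with earlier results of these data known, and each has 1 row in the deposited table of 54242 gene symbols. All 8 passed the filter on low values and are among the 16447 genes tested. RNA-seq had been run on 24 libraries of CGR8 mouse ESCs, a line that grows without feeder cells, with 3 libraries in each of 8 groups. The groups cross the day (day 0 in FBS and LIF, or day 4 of 10 nM retinoic acid, RA), the siRNA (si-Rsl24d1, or si-CTL as control), and the rescue, in which doxycycline switches on an siRNA-resistant Rsl24d1 reading frame in the CGR8-RESCUE line. Rsl24d1 encodes a factor of large ribosomal subunit assembly, and the question of the design was what its loss does to ESCs that self-renew or differentiate. All libraries come from a single line. The study calls its 3 values per group biological replicates, and the labels do not say whether they are separate cultures. The p-values measure the spread between these libraries.

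The labels and the study's methods do not give the same account of LIF, the ligand of this pathway. Sample labels and methods describe RA medium with serum and no LIF, whereas the series' design text has LIF in the RA medium. The day comparison therefore joins RA, time in culture and, by the sample labels, the loss of LIF, and these cannot be told apart. Cells without doxycycline are labelled as empty vector, and sample descriptions give 48 h after transfection where the protocol has 72 h.

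LIF binds its receptor chain LIFR, which pairs with gp130, the product of Il6st. The kinase JAK1, bound to the receptor, phosphorylates it and STAT3, which then enters the nucleus and activates transcription. In mouse ESCs this route sustains self-renewal. SOCS3 is induced by STAT3 and blocks the receptor in a feedback loop, and the serine/threonine kinases PIM1 and PIM3 are products of STAT3 target genes. RNA levels give no measure of phosphorylated STAT3, and LIF added to the medium is protein, which Lif transcripts do not reflect.

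Levels are given as log2(TPM + 1). TPM values correct reads for transcript length and sum to 1000000 in each library. TPM keep no library size, so depth is unknown. Precision rests on 3 libraries per group and on a spread for each gene that is pooled over all 24 libraries. Rsl24d1 itself averaged 141 TPM in si-CTL and 35.7 TPM in si-Rsl24d1 cells at day 0 without rescue. At day 4 the knockdown was not seen: the difference between siRNAs was -0.04 ± 0.07 (SE) on the log2 scale. For day 4, si-Rsl24d1 is therefore used as the label of the libraries and not as a state of Rsl24d1 RNA. Of 10 pluripotency markers, 8 fell (3 called) and 2 rose (1 called) at day 4 in si-CTL cells, with a median difference of -0.65, while their summed TPM was 7353 to 7555 against 6027 to 6228 at day 0. The summed TPM of 8 RA response genes went from 21.7 to 24.5 up to 63.9 to 70.1. The median over all tested genes moved by more than 0.1 in several comparisons, by -0.10 for day 4 against day 0 in si-CTL cells, by 0.12 for the same in rescued si-CTL cells, by 0.13 for si-Rsl24d1 against si-CTL at day 4, and by -0.11 and -0.12 for rescue against none at day 0 in si-Rsl24d1 and si-CTL cells. Changes of that size in a single gene are to be read against these shifts.

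Per length, Lif had the lowest mean TPM of the 8 genes in every group. Pim1 and Pim3 had the highest in 6 of the 8 groups, but in si-Rsl24d1 cells of day 0 Socs3 (57.5 TPM) averaged more than Pim3 (55.4 TPM) and Pim1 (47.4 TPM), and with rescue Socs3 (53.4 TPM) averaged more than Pim1 (49.3 TPM). Socs3 lay above Stat3 and Il6st in all day 0 groups, whereas at day 4 Il6st averaged more than Socs3 in all 4 groups (22.0 against 20.5 TPM in si-CTL). Over the 24 libraries, Lif lay between 3.47 and 12.2 TPM, Lifr between 7.76 and 16.8 TPM, Jak1 between 9.66 and 25.3 TPM and Il6st between 11.2 and 38.5 TPM. Stat3 lay between 16.0 and 43.8 TPM, Socs3 between 18.5 and 58.6 TPM, Pim3 between 44.6 and 70.3 TPM and Pim1 between 47.0 and 80.0 TPM. The spread within groups ran the other way. The pooled SD of the log2 values within groups was 0.203 for Lifr and 0.183 for Lif, but 0.058 for Pim1 and 0.0533 for Pim3. Small differences could thus be tested in the kinase genes that would be lost in the ligand and receptor genes.

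**Figure D1:**
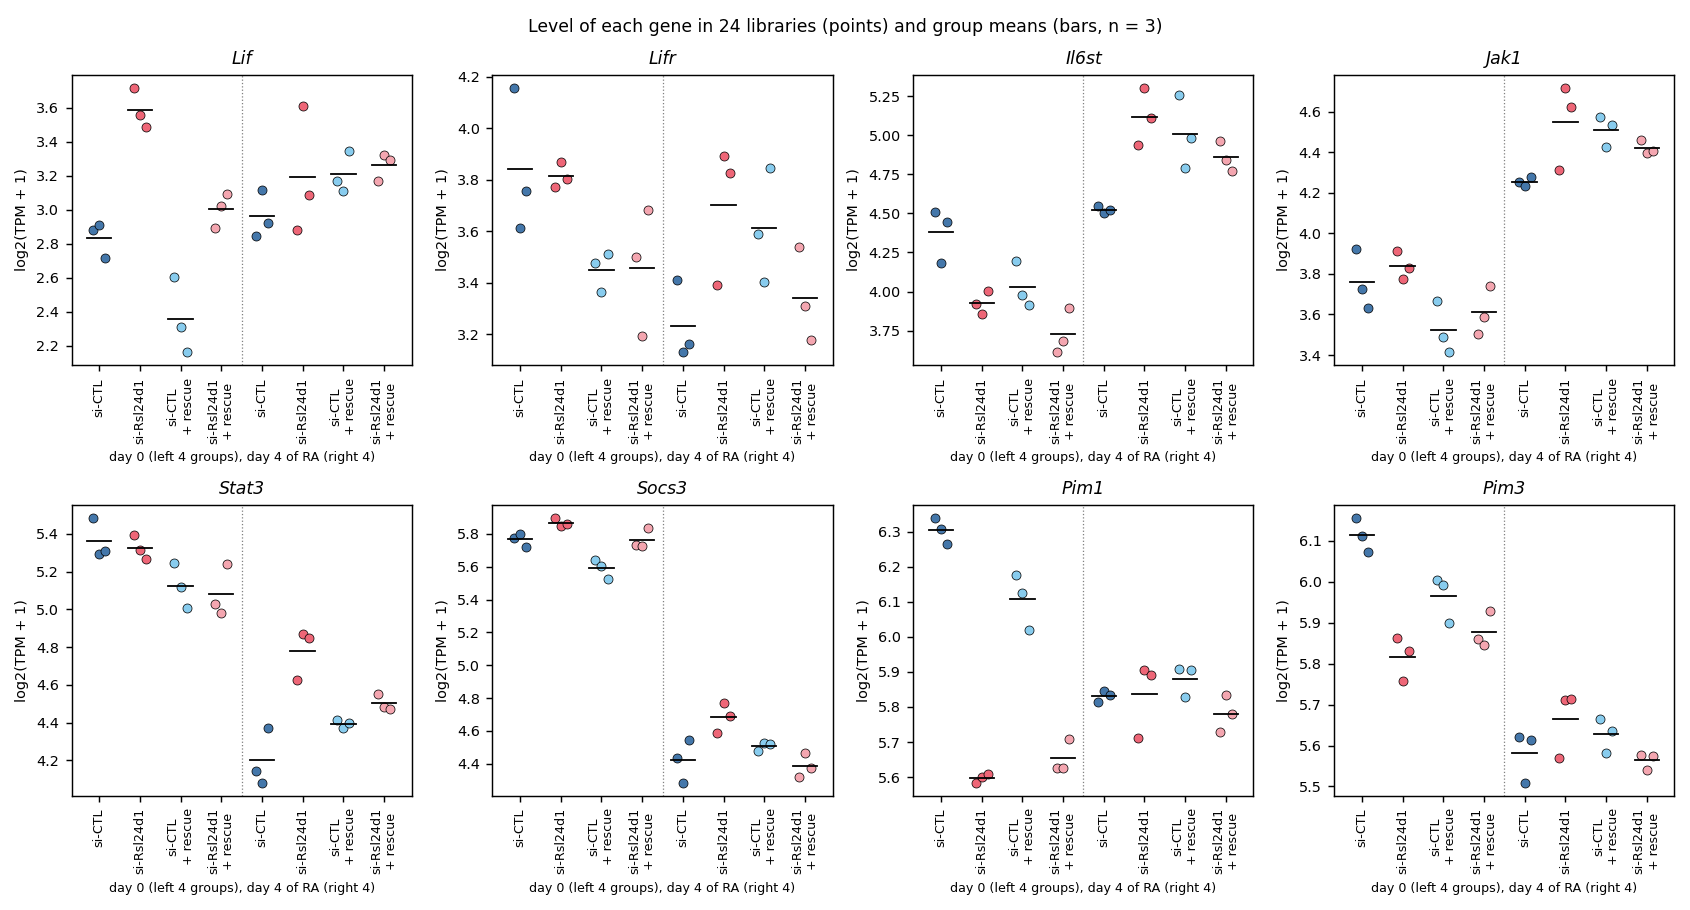
Level of each of the 8 genes in log2(TPM + 1) on the vertical axis, in the 8 groups along the horizontal axis; points are libraries, bars are means of 3 libraries, and vertical axes differ between panels and do not start at 0. All 12 day 4 libraries of Socs3 and Stat3 lie below all 12 day 0 libraries, all 12 day 4 libraries of Jak1 lie above, and Pim1 is lowest in si-Rsl24d1 cells at day 0.

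In GRCm38 (gencode vM21) the genes lie as follows: Socs3 at chr11:117966079-117970047 and Stat3 at chr11:100885098-100939540 on the minus strand, Lif at chr11:4257557-4272514, Il6st at chr13:112464070-112510086, Lifr at chr15:7090614-7197489, Pim3 at chr15:88862186-88865726 and Pim1 at chr17:29490753-29496112 on the plus strand, and Jak1 at chr4:101152367-101265282 on the minus strand. All are protein coding. STAT proteins bind palindromes of the form TTCNNNGAA, which reads the same on both strands. RefSeq (GRCm38.p6) promoter windows of 250 bases before the start were at hand for all 8 genes, 10 windows in all, since Lifr and Pim1 have a pair of starts each. The motif was in 1 of the 10, that of Socs3, and in 7.02% of the 32851 windows of all genes. The match begins 154 bases before the RefSeq start of Socs3. For 3 genes the longest stretch of the window outside gencode exons is shown, because these genes carried the largest day differences. They are Socs3 with the match in capitals (chr11:117969452-117969616, minus strand, 165 of the 250 bases), and Stat3 (chr11:100939541-100939790, minus strand) and Il6st (chr13:112463820-112464069, plus strand) without one. The Socs3 stretch shown lies before the RefSeq start but inside the longer gencode span of the gene, outside its exons, so it is upstream of the RefSeq transcript only.
Socs3: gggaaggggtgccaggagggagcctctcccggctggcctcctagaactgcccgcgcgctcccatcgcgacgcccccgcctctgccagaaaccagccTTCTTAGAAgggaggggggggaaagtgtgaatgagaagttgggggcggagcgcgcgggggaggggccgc
Stat3: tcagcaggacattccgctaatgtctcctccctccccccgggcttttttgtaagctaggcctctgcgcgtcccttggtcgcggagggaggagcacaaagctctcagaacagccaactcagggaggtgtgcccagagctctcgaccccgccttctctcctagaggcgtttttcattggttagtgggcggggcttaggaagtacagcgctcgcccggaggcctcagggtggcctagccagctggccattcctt
Il6st: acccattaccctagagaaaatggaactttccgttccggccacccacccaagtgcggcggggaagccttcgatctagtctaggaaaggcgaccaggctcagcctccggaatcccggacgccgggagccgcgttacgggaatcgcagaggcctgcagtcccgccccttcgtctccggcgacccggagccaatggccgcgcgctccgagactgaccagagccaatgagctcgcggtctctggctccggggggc
A match of letters in these windows is a description and was not tested for binding.

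At day 4 the feedback inhibitor and the transcription factor were lower, the kinase was higher, and the shared receptor chain was higher in all groups but si-CTL without rescue. Here rose and fell are used for an adjusted p below 0.01, and a gene is called where the change also exceeds 1.8-fold, which is 0.848 on the log2 scale. In si-CTL cells without rescue, 2 of the 8 genes were called at day 4 against day 0, both lower, where 15% of all tested genes were called (6.77% higher and 8.24% lower). By adjusted p alone, 1 gene rose and 5 fell, where 60.9% of all tested genes passed (24.1% higher and 36.7% lower). The libraries of the days did not overlap for 6 of the 8 genes, and for 72.5% of all tested genes. The median difference of the 8 genes was -0.50, and that of all tested genes was -0.10.

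Socs3 was the member with the steadiest loss. In si-CTL cells its 3 libraries read 5.78, 5.80 and 5.72 log2(TPM + 1) at day 0 and 4.43, 4.29 and 4.54 at day 4, or 53.4 ± 1.59 TPM (SD, n = 3) and 20.5 ± 1.90 TPM. The groups were far apart, with a difference of -1.35 ± 0.06 (SE, adjusted p = 1.34e-13). In si-Rsl24d1 cells the libraries went from 5.90, 5.85 and 5.86 to 4.59, 4.77 and 4.69, a difference of -1.19 ± 0.06 (adjusted p = 7.81e-13). With rescue, Socs3 fell by 1.08 in si-CTL cells (5.64, 5.61 and 5.52 to 4.48, 4.53 and 4.52) and by 1.38 in si-Rsl24d1 cells (5.73, 5.73 and 5.83 to 4.32, 4.47 and 4.37), with adjusted p of 3.38e-12 and 8.25e-14. Socs3 was therefore called in all 4 day comparisons, and no day 4 library reached a day 0 library. These comparisons share no library, but they share the pooled estimate of the spread.

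Stat3 fell in all 4 comparisons as well, but passed 1.8-fold in only 1 of them. In si-CTL cells without rescue its libraries read 5.48, 5.29 and 5.31 at day 0 and 4.14, 4.08 and 4.37 at day 4, that is 40.2 ± 3.09 and 17.5 ± 2.00 TPM. The difference was -1.16 ± 0.08 (adjusted p = 2.86e-10). In si-Rsl24d1 cells the libraries went from 5.39, 5.31 and 5.27 to 4.63, 4.87 and 4.85, a difference of -0.54 ± 0.08 (adjusted p = 1.14e-05). Rescued si-CTL cells read 5.25, 5.12 and 5.01 at day 0 and 4.41, 4.37 and 4.40 at day 4, a difference of -0.73 ± 0.08. Rescued si-Rsl24d1 cells read 5.03, 4.98 and 5.24 and then 4.55, 4.48 and 4.47, a difference of -0.58 ± 0.08. On median of ratios scaling, the value in rescued si-CTL cells was -0.88, past 1.8-fold.

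Il6st, the gp130 gene, moved with the group. In si-CTL cells without rescue its libraries read 4.51, 4.18 and 4.44 at day 0 and 4.55, 4.50 and 4.52 at day 4, and the difference of 0.15 ± 0.11 did not pass (adjusted p = 0.269). In si-Rsl24d1 cells the libraries went from 3.92, 3.86 and 4.00 to 4.94, 5.30 and 5.11, or from 14.2 ± 0.767 to 33.9 ± 4.44 TPM. That rise of 1.19 ± 0.11 was called (adjusted p = 1.89e-08). In rescued si-CTL cells it rose from 4.20, 3.98 and 3.92 to 5.26, 4.79 and 4.98 (0.98 ± 0.11, adjusted p = 2.75e-07), and in rescued si-Rsl24d1 cells from 3.61, 3.68 and 3.89 to 4.97, 4.84 and 4.77 (1.13 ± 0.11, adjusted p = 3.88e-08). The groups were apart in these 3 comparisons, and all 3 were called. On median of ratios scaling, the value in rescued si-CTL cells was 0.84 and no longer called.

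Jak1, the receptor-bound kinase, rose at day 4 in all 4 comparisons. The differences were 0.49 ± 0.09 with si-CTL, 0.71 ± 0.09 with si-Rsl24d1, 0.99 ± 0.09 in rescued si-CTL and 0.81 ± 0.09 in rescued si-Rsl24d1 cells, with adjusted p between 1.28e-08 and 9.35e-05. Every day 4 library, from 4.23 to 4.72, lay above every day 0 library, from 3.41 to 3.93. Only the rise in rescued si-CTL cells, from 10.5 ± 1.05 to 21.8 ± 1.20 TPM, was called, and it dropped just under 1.8-fold on median of ratios scaling, at 0.845. The rise in rescued si-Rsl24d1 cells passed 1.8-fold without replicate 3 of rescued si-Rsl24d1 at day 0, at 0.87, and with 0.1 added to TPM, at 0.86.

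The ligand and its own receptor chain did not share a pattern. Lif, transcribed by the cells themselves, read 2.61, 2.31 and 2.16 at day 0 and 3.17, 3.11 and 3.34 at day 4 in rescued si-CTL cells, a rise from 4.17 ± 0.829 to 8.26 ± 0.787 TPM. The difference of 0.85 ± 0.14 (adjusted p = 2.61e-05) lay right at the 1.8-fold threshold. It was not called without replicate 2 or 3 of rescued si-CTL at day 0 (0.82 and 0.75), without replicate 3 of day 4 (0.78), with 2 added to TPM (0.74) or on median of ratios scaling (0.72). In the other comparisons the Lif difference was 0.13 ± 0.14 with si-CTL, -0.39 ± 0.14 with si-Rsl24d1 and 0.26 ± 0.14 in rescued si-Rsl24d1 cells, none of which passed. In si-Rsl24d1 cells the Lif difference was -0.60 (adjusted p = 0.000246) without replicate 2 of day 4, the highest of its group, and -0.41 (adjusted p = 0.00629) on median of ratios scaling. Lifr fell in si-CTL cells without rescue, from 4.16, 3.61 and 3.76 to 3.41, 3.13 and 3.16 (-0.61 ± 0.15, adjusted p = 0.00172). The first day 0 library stood highest of all 24, and without it the difference was -0.45 with an adjusted p of 0.0174. In the other 3 comparisons Lifr differed by -0.11, 0.16 and -0.12, with SE of 0.15 and adjusted p of 0.366 to 0.544.

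The kinase targets moved little, and Pim1 moved in opposite directions by siRNA. Pim1 fell in si-CTL cells from 6.34, 6.31 and 6.27 to 5.81, 5.84 and 5.83 (-0.47 ± 0.05, adjusted p = 4.01e-08), and in rescued si-CTL cells by 0.23 (adjusted p = 0.000352). In si-Rsl24d1 cells it rose from 5.58, 5.60 and 5.61 to 5.71, 5.91 and 5.89 (0.24 ± 0.05, adjusted p = 0.000226, or 0.0138 with the 2 groups fitted alone), and in rescued si-Rsl24d1 cells the difference was 0.13 ± 0.05 (adjusted p = 0.0257). Pim3 fell in all 4 comparisons, by 0.53 with si-CTL (from 68.3 ± 1.97 to 46.9 ± 2.03 TPM), 0.15 with si-Rsl24d1, 0.34 in rescued si-CTL and 0.31 in rescued si-Rsl24d1 cells. The Pim3 value in si-Rsl24d1 cells (adjusted p = 0.00638) did not pass without replicate 1 or 3 of day 0, at -0.13 and -0.14 (adjusted p = 0.0356 and 0.0222), or without replicate 1 of day 4, at -0.10 (adjusted p = 0.0494). No Pim1 or Pim3 difference reached 1.8-fold.

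In si-Rsl24d1 cells, 1 of the 8 genes was called higher and 1 lower, where 14.1% of tested genes were called (7.93% higher and 6.22% lower). By adjusted p 3 rose and 3 fell, where 55.8% passed (29.4% and 26.4%), and 6 genes did not overlap between the days, as did 66.3% of all. In rescued si-CTL cells, 3 were called higher and 1 lower, where 15.6% were called (10.7% and 4.82%), 3 rose and 4 fell, where 59.2% passed (36.8% and 22.4%), and 7 did not overlap, as did 71.5%. In rescued si-Rsl24d1 cells, 1 was called higher and 1 lower, where 14.9% were called (9.34% and 5.57%), 2 rose and 3 fell, where 58.1% passed (32.4% and 25.8%), and 7 did not overlap, as did 70.2%.

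Some markers of other cell types moved between the days as well. Of 8 fibroblast markers, 4, 6, 6 and 6 were called higher and 1 lower at day 4 in si-CTL, si-Rsl24d1, rescued si-CTL and rescued si-Rsl24d1 cells. Their summed TPM was 42.3 to 51.9 at day 0 and 117.5 to 125.8 at day 4 with si-CTL, and 35.6 to 37.8 and 234.2 to 309.1 with si-Rsl24d1. Of 6 tested primitive endoderm markers, 3, 6, 3 and 4 were called higher and 0 lower in the same order, and all 6 rose by adjusted p in each. Of 4 tested neural markers, none was called higher, and 0, 1, 0 and 1 were called lower. Of 5 tested trophoblast markers, 1 was called higher and 0 lower in each. In bulk RNA, a change in the share of cells of a type and a change in RNA per cell cannot be told apart, and the part of these markers in the day differences was not tested.

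**Figure D2:**
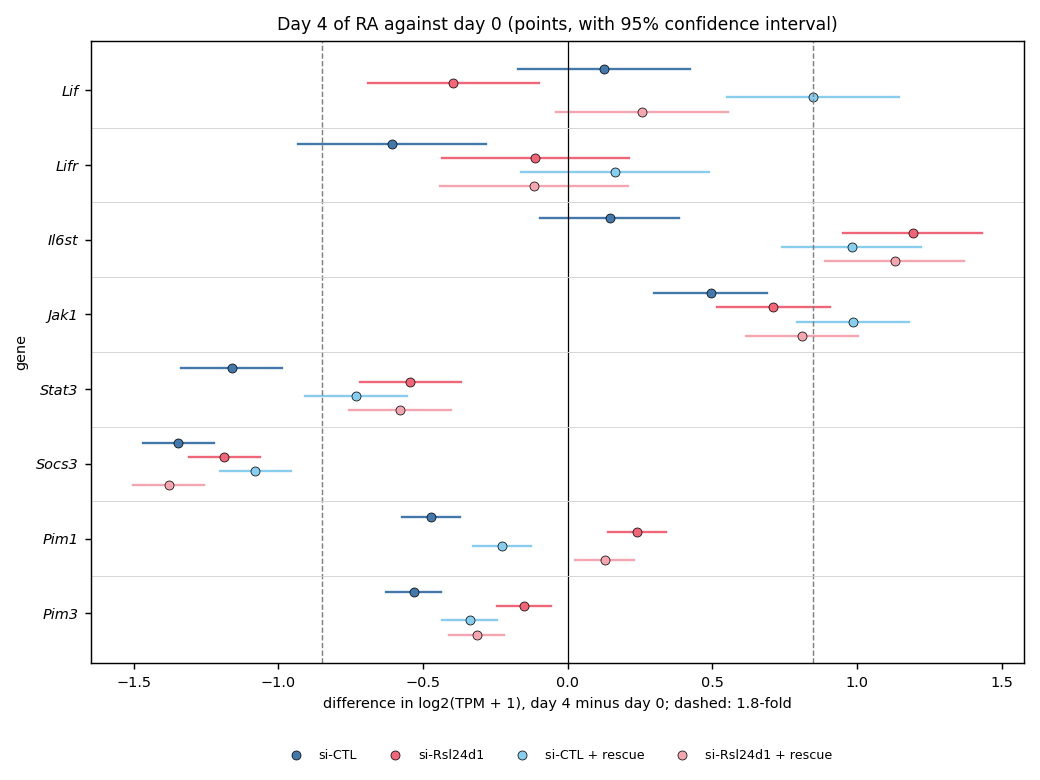
Difference in log2(TPM + 1) between day 4 and day 0 (horizontal axis) for each gene (vertical axis) in the 4 cell groups given by colour; points are estimates from 3 against 3 libraries, lines are 95% confidence intervals and dashed lines mark 1.8-fold. Socs3 lies left of the dashed line in every group, Stat3 in si-CTL cells only, and Il6st lies right of it in every group except si-CTL without rescue.

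At day 0, si-Rsl24d1 cells had more Lif RNA and less Pim1, Pim3 and Il6st RNA than si-CTL cells. None of the 8 genes was called, where 4.18% of tested genes were, and 4 passed the adjusted p, where 30.4% of tested genes did. The libraries of 5 genes did not overlap between the siRNAs, nor did those of 51.1% of all tested genes. Pim1 gave the clearest separation, at 6.34, 6.31 and 6.27 in si-CTL and 5.58, 5.60 and 5.61 in si-Rsl24d1 cells, that is 78.1 ± 2.04 and 47.4 ± 0.422 TPM. The difference was -0.71 ± 0.05 (adjusted p = 4.4e-10), and the libraries did not overlap. Lif read 2.88, 2.91 and 2.71 in si-CTL and 3.72, 3.56 and 3.49 in si-Rsl24d1 cells, a rise of 0.75 ± 0.14 (adjusted p = 0.000236) from 6.15 ± 0.516 to 11.1 ± 0.993 TPM. The 3 knockdown libraries held 3 of the 4 highest Lif values of the series.

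Pim3 was lower by 0.30 ± 0.05 (adjusted p = 2.31e-05), and its libraries did not overlap either (6.16, 6.11 and 6.07 against 5.86, 5.76 and 5.83). Il6st was lower by 0.45 (difference -0.45 ± 0.11, adjusted p = 0.00336). The Il6st value did not pass in 4 of the fits without 1 library. Without replicate 1 or 3 of si-CTL, or replicate 1 or 2 of si-Rsl24d1, the difference was -0.39, -0.42, -0.45 and -0.42 with adjusted p of 0.0217, 0.0161, 0.0115 and 0.0167. Socs3, Stat3, Jak1 and Lifr did not pass. Their differences were 0.10, -0.04, 0.08 and -0.03, and the 95% confidence interval for Stat3 ran from -0.21 to 0.14. The intervals were -0.02 to 0.23 for Socs3, -0.11 to 0.27 for Jak1 and -0.35 to 0.30 for Lifr. In the same comparison 7 of 10 pluripotency markers fell and none rose, 2 of them called (Esrrb, -1.09, and Zfp42, -0.96), with summed TPM of 5099 to 5114 against 6027 to 6228 in si-CTL cells. Of 5 tested trophoblast markers, 3 rose without a call, with summed TPM over the list of 65.8 to 71.4 against 45.9 to 49.5. Of 7 tested RA response genes, 1 was called higher and 1 lower. Of 8 fibroblast markers, 1 was called higher and 2 fell without a call. Of 4 tested neural markers, 2 rose and 1 fell without a call, and no primitive endoderm marker passed the adjusted p. The part of these markers in the Pim1, Lif, Pim3 and Il6st values was not tested.

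At day 4, Stat3, Il6st and Socs3 were higher in the libraries labelled si-Rsl24d1 than in si-CTL libraries without rescue, between which Rsl24d1 differed by -0.04. None was called (1.63% of tested genes were), 3 passed the adjusted p (30.9% did) and 4 did not overlap (48.4%). Stat3 read 4.63, 4.87 and 4.85 against 4.14, 4.08 and 4.37 in si-CTL cells, a rise of 0.58 ± 0.08 (adjusted p = 3.16e-05), or 26.6 ± 2.50 against 17.5 ± 2.00 TPM. With these 2 groups fitted alone, its adjusted p was 0.0118. Il6st was higher by 0.59 ± 0.11 (adjusted p = 0.000462), at 33.9 ± 4.44 against 22.0 ± 0.364 TPM. The libraries of both genes did not overlap between the groups.

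Socs3 was higher by 0.26 ± 0.06 (adjusted p = 0.00145), but this was 0.19 and 0.22 (adjusted p = 0.0125 and 0.0131) without the second si-CTL or the second si-Rsl24d1 library, and 0.10 (adjusted p = 0.093) on median of ratios scaling. Pim1 differed by 0.01 ± 0.05 as deposited and by -0.16 (adjusted p = 0.000433) on that scaling, so its direction depends on the scale. Pim3 differed by 0.08, Lif by 0.23, Lifr by 0.47 and Jak1 by 0.30, none past the adjusted p. The first si-Rsl24d1 library of day 4 read lowest of its group in all 8 genes. Its scaling factor by the median of ratios was 0.9975, against 1.101 and 1.087 in its group and 0.9272 to 0.9633 in si-CTL. The share of all tested genes lowest in that library was not counted, so this is not read as a trait of the pathway. Without that library, which widens the gap in scale between the groups, Lifr and Jak1 differed by 0.62 and 0.42, with adjusted p of 0.00283 and 0.00056.

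Markers of other cell types moved in the same comparison. Of 8 fibroblast markers, 5 were called higher in si-Rsl24d1 cells at day 4 and none lower, led by Col3a1 (2.05) and Twist1 (1.51), and their summed TPM was 234.2 to 309.1 against 117.5 to 125.8 in si-CTL cells. Of 8 primitive endoderm markers, of which 6 passed the filter, 2 were called higher, Gata6 (0.99) and Dab2 (0.87), with summed TPM of 462.4 to 538.9 against 332.9 to 367.1. Of the other lists, 1 of 7 tested RA response genes (Meis1, 1.10), 1 of 4 neural markers (Nes, 1.17), 1 of 5 trophoblast markers (Hand1, 1.13) and 0 of 10 pluripotency markers were called, the last with 1 higher and 1 lower by adjusted p. No marker of any list was at 0 in all libraries of a group. The part of these markers in the Stat3 and Il6st values was not tested.

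The siRNA difference itself changed between the days. In the test of that change without rescue (the siRNA difference at day 4 minus that at day 0), 1 of the 8 genes was called, where 5.61% of tested genes were, and 4 passed the adjusted p, where 30.9% of tested genes did. The change was 1.05 ± 0.16 for Il6st (adjusted p = 4.19e-05), 0.71 ± 0.07 for Pim1 (adjusted p = 1.19e-07), 0.62 ± 0.12 for Stat3 (adjusted p = 0.000368) and 0.38 ± 0.06 for Pim3 (adjusted p = 9.51e-05). The median change over all tested genes was 0.14. Il6st crossed over, lower in si-Rsl24d1 cells at day 0 and higher at day 4, whereas Pim1 and Pim3 were lower at day 0 and showed no difference past the adjusted p at day 4. In the same test Rsl24d1 changed by 1.91 ± 0.10 (adjusted p = 2.65e-11). It differed between siRNAs by -1.95 at day 0 and by -0.04 at day 4. The test therefore sets a knockdown at day 0 against none seen at day 4, and does not compare the same depletion on both days.

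**Figure D3:**
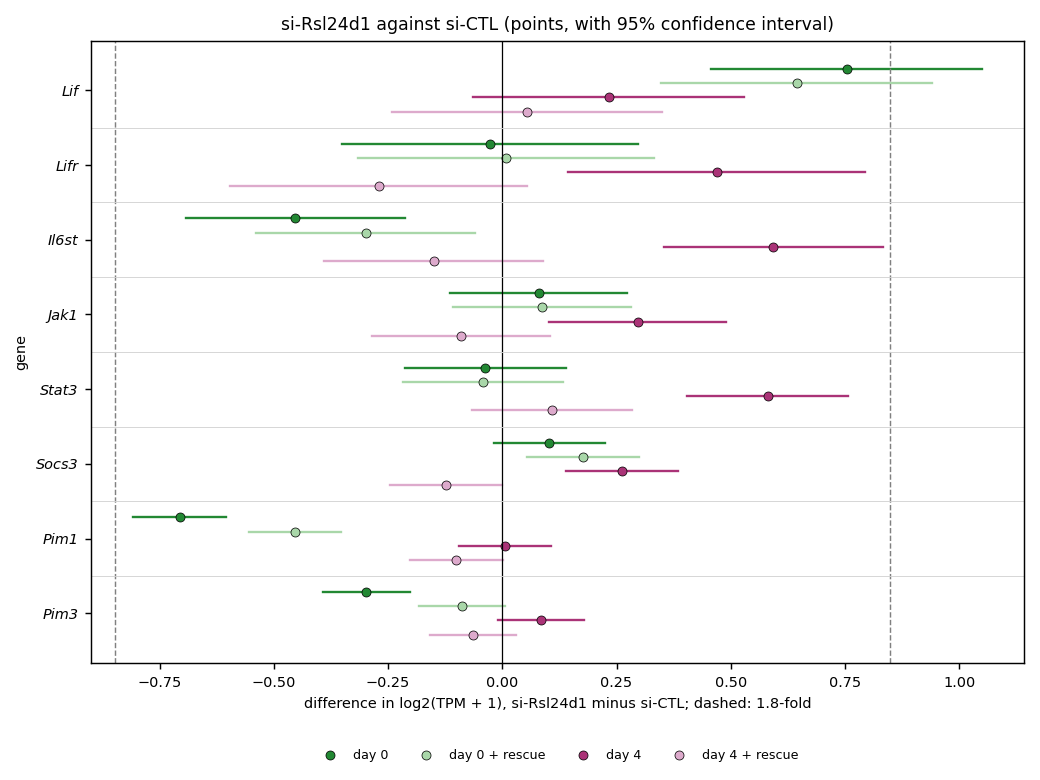
Difference in log2(TPM + 1) between si-Rsl24d1 and si-CTL cells (horizontal axis) for each gene (vertical axis), at day 0 and day 4, without and with rescue, by colour; points are estimates from 3 against 3 libraries, lines are 95% confidence intervals and dashed lines mark 1.8-fold. No point passes a dashed line; Pim1 is lowest at day 0 without rescue (-0.71), and the Il6st points of day 0 and day 4 without rescue lie on opposite sides of 0.

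The Pim1 and Lif differences of day 0 were also seen with rescue. In rescued cells at day 0, where Rsl24d1 was still lower by 0.50 with si-Rsl24d1, none of the 8 genes was called (1.36% of tested genes were), 2 passed the adjusted p (13.7% did) and 4 did not overlap (33%). The Rsl24d1 value does not separate transcripts of the cells' own gene from those of the rescue reading frame. Pim1 was lower by 0.45 (6.18, 6.12 and 6.02 against 5.63, 5.63 and 5.71, adjusted p = 7.55e-07). Lif was higher by 0.64 ± 0.14 (adjusted p = 0.0023), but did not pass without replicate 2 or 3 of si-CTL (0.62 and 0.55, adjusted p = 0.0116 and 0.0176) or replicate 3 of si-Rsl24d1 (0.60, adjusted p = 0.0124). The test of whether the siRNA difference changed with rescue at day 0 found no member called or past the adjusted p, where 0.128% and 2.09% of tested genes were, with adjusted p of 0.0355 for Pim1 (a change of 0.25 ± 0.07) and 0.0634 for Pim3 (0.21 ± 0.06) and 0.714 or more for the other 6, and 2 of the 8 had an unadjusted p below 0.05. The share of all tested genes below that unadjusted limit was not counted. On median of ratios scaling, Pim1 and Pim3 passed, at 0.24 and 0.20 (adjusted p = 0.0021 and 0.00658).

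At day 4 with rescue, limma called no member and none passed the adjusted p, where 0.73% and 5.87% of all tested genes did. At an unadjusted p below 0.05 there was 1, Socs3, and the share of all tested genes below that limit was not counted. The libraries of 3 genes did not overlap (35.6% of all). Socs3 and Pim1 had the smallest adjusted p (0.192 and 0.199), with differences of -0.12 and -0.10. Stat3 differed by 0.11 ± 0.08, with a 95% confidence interval from -0.07 to 0.28, and Il6st by -0.15 ± 0.11. The test of the change with rescue at day 4 gave -0.74 ± 0.16 for Il6st (adjusted p = 0.00492), -0.47 ± 0.12 for Stat3 (adjusted p = 0.00958) and -0.38 ± 0.08 for Socs3 (adjusted p = 0.00454). None was called (0.511% of tested genes were), 3 passed the adjusted p (8.95% did), and the median over all tested genes was -0.17. Leaving out single libraries moved the adjusted p past 0.01 in 8 of 12 cases for Il6st, 10 of 12 for Stat3 and 7 of 12 for Socs3, and on median of ratios scaling they were -0.54, -0.27 and -0.18 with adjusted p of 0.0117, 0.0249 and 0.0618. Lifr changed by -0.74 ± 0.22 (adjusted p = 0.0196), and by -0.90 (adjusted p = 0.00293) without the first si-Rsl24d1 library of day 4. In the same test Rsl24d1 changed by 0.19 ± 0.10 (adjusted p = 0.156). It differed between siRNAs by -0.04 without rescue and 0.15 with it, so the test does not measure the reversal of a knockdown. With against without rescue, Il6st, Stat3 and Socs3 differed by 0.49, 0.19 and 0.09 in si-CTL cells. In si-Rsl24d1 cells they differed by -0.26, -0.28 and -0.30. With rescue, the change of the siRNA difference between the days called no member (2.1% of tested genes were called), and only Pim1 passed the adjusted p (0.35 ± 0.07, adjusted p = 0.00107), where 9.95% of tested genes did. Rsl24d1 itself changed by 0.65 ± 0.10 in that test (adjusted p = 9.79e-05).

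Cells with doxycycline differed from those without by less than 1.8-fold in every member. Rescued against unrescued si-CTL cells differed by -0.15 to -0.48 in all 8 genes at day 0, none past the adjusted p (0.0122% of tested genes passed). The median of all genes was -0.12, and 6 genes did not overlap (41.8% of all). All 8 had an unadjusted p below 0.05, but the share of tested genes below that limit was not counted, so this is not read as a trait of the pathway. The scaling factors of the median of ratios were 0.8912 to 0.9733 in rescued si-CTL libraries of day 0. In unrescued ones they were 1.011 to 1.075. On that scaling Pim3 differed by 0.0018. At day 4 Il6st was higher in rescued si-CTL cells by 0.49 ± 0.11 (5.26, 4.79 and 4.98 against 4.55, 4.50 and 4.52, adjusted p = 0.00635, where 10.2% of tested genes passed). That value did not pass in 5 of 6 fits without a library, at 0.36 to 0.50 (adjusted p = 0.016 to 0.0462). In si-Rsl24d1 cells, Lif was lower with rescue at day 0, with 2.89, 3.02 and 3.09 against 3.72, 3.56 and 3.49 (difference -0.58, adjusted p = 0.00508, where 15.3% passed and 43.2% did not overlap, as 6 of the members), with adjusted p up to 0.0298 without the first or second library of either group. At day 4 Socs3 was lower with rescue (difference -0.30, adjusted p = 0.00249, where 5.17% passed), with adjusted p of 0.0117 to 0.0214 without unrescued replicate 2 or 3 or rescued replicate 1 or 3. No member was called in any of these comparisons, where 0.28%, 0.0851%, 0% and 0.0547% of tested genes were (day 0 and day 4 in si-Rsl24d1, then day 0 and day 4 in si-CTL cells). The rescue comparisons share libraries with the siRNA comparisons of the same day.

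Ordered by level, the groups fell into blocks by day, with no library overlapping across the days, for 4 genes. The share of all tested genes that split this way was not counted, so the 4 are not read as a trait of the pathway. In the single day comparisons, 66.3% to 72.5% of all tested genes did not overlap. For Socs3, Stat3 and Pim3 the 4 day 0 groups ranked above the 4 day 4 groups, and for Jak1 below. Pim3 ranged from 68.3 TPM in si-CTL down to 46.3 ± 0.695 TPM in rescued si-Rsl24d1 cells of day 4, and neighbours among its 4 day 4 groups overlapped. Il6st was also ordered by day, but si-CTL without rescue overlapped between day 4 and day 0. For Pim1 the day 4 groups (54.0 to 57.9 TPM on average) lay between the si-CTL groups of day 0 (78.1 and 68.0 TPM) and the si-Rsl24d1 groups of day 0 (47.4 and 49.3 TPM). Lifr had no step at all: each group overlapped the next in order, from 13.5 ± 2.94 TPM in si-CTL at day 0 to 8.44 ± 1.03 TPM in si-CTL at day 4. Lif had a gap above its lowest group, rescued si-CTL at day 0 with 4.17 TPM. Its highest group, si-Rsl24d1 at day 0 with 11.1 TPM, did not overlap the group next in mean. Replicate 2 of si-Rsl24d1 at day 4 (3.61) still lay within the range of that highest group (3.49 to 3.72).

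The other genes of the pathway were read from a list of 54, of which 50 passed the filter. The ligands Il6, Ctf2 and Il27 and the receptor chain Osmr did not. In si-CTL cells at day 4 against day 0, 1 of the 50 was called higher and 9 lower, and 5 rose and 28 fell by adjusted p alone. Over all tested genes, 6.77% were called higher and 8.24% lower, and 24.1% rose and 36.7% fell. The median of the list was -0.33 against -0.10 over all tested genes. In si-Rsl24d1 cells 2 were called higher and 9 lower (7.93% and 6.22% of all tested genes), in rescued si-CTL cells 1 and 7 (10.7% and 4.82%), and in rescued si-Rsl24d1 cells 1 and 8 (9.34% and 5.57%).

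Near the receptor, Jak2, a kinase that also serves gp130, rose by 1.05 ± 0.08 with si-CTL, 0.95 with si-Rsl24d1, 1.58 in rescued si-CTL and 1.23 in rescued si-Rsl24d1 cells, called in each. Jak3 was called lower in si-Rsl24d1 cells only (-0.99 ± 0.05). Il11ra1, the receptor chain of IL-11, was called higher in si-Rsl24d1 cells (0.98). Of the 5 receptor chains tested, 1 was called lower in each day comparison. Of the 6 other STAT factors, 1 was called lower in si-CTL, si-Rsl24d1 and rescued si-Rsl24d1 cells, and none in rescued si-CTL cells. No ligand was called among the 5 tested. The 4 adaptors that link gp130 to other kinases, Ptpn11, Gab1, Grb2 and Shc1, all fell in si-CTL cells, by 0.36 to 0.63, without a call, where 36.7% of all tested genes fell. None passed the adjusted p in the other 3 day comparisons, where 55.8% to 59.2% of all tested genes did. None of 14 other inhibitors, among them the SOCS, PIAS and phosphatase genes, was called in any day comparison.

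The 13 other target genes held most of the calls. In si-CTL cells 7 were called lower and none higher, and 11 fell and 2 rose by adjusted p, with Mcl1 at the median. Of all tested genes, 8.24% were called lower and 6.77% higher, and 36.7% fell and 24.1% rose. Pim2, which encodes another PIM kinase, fell by 3.29, from 6.51 to 3.22 log2(TPM + 1), the largest fall of the list, beside -0.47 for Pim1 and -0.53 for Pim3. Myc fell by 2.86, Bcl3 by 2.18, Klf5 by 1.86, Gbx2 by 1.48, Junb by 1.35 and Mcl1 by just over 1 on the log2 scale. Klf5 and Gbx2 encode transcription factors that sustain ESC self-renewal under LIF, and Mcl1 an anti-apoptotic protein. Klf4 (-0.84) fell short of a call by a little, and Fos and Ier3 rose by 0.59 and 0.28.

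In si-Rsl24d1 cells Myc fell by 1.39, Bcl3 by 1.04 and Klf5 by 0.67, and in the test of the change between days 5 targets were called without rescue, where 5.61% of all tested genes were: Myc (1.47 ± 0.10, adjusted p = 1.58e-09), Klf5 (1.20 ± 0.20), Tfcp2l1 (1.18 ± 0.20), Bcl3 (1.15 ± 0.10) and Klf4 (0.85 ± 0.13). Tfcp2l1 is a self-renewal factor downstream of Stat3. Pim2 changed by 0.08 only. At day 4, Myc was the single gene of the list called between siRNAs (1.63% of all tested genes were), at 3.30 in si-Rsl24d1 and 2.37 in si-CTL cells (0.93 ± 0.07, adjusted p = 1.25e-08). At day 0 none of the 50 was called between siRNAs, where 4.18% of all tested genes were, and 9 were higher and 15 lower by adjusted p, where 30.4% passed, with a median of -0.07. With rescue, 0 of the 50 were called between siRNAs by limma on either day, and 5 higher and 1 lower at day 0 and 3 higher and 1 lower at day 4 passed the adjusted p. Of all tested genes, 1.36% and 0.73% were called and 13.7% and 5.87% passed on these days.

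**Figure D4:**
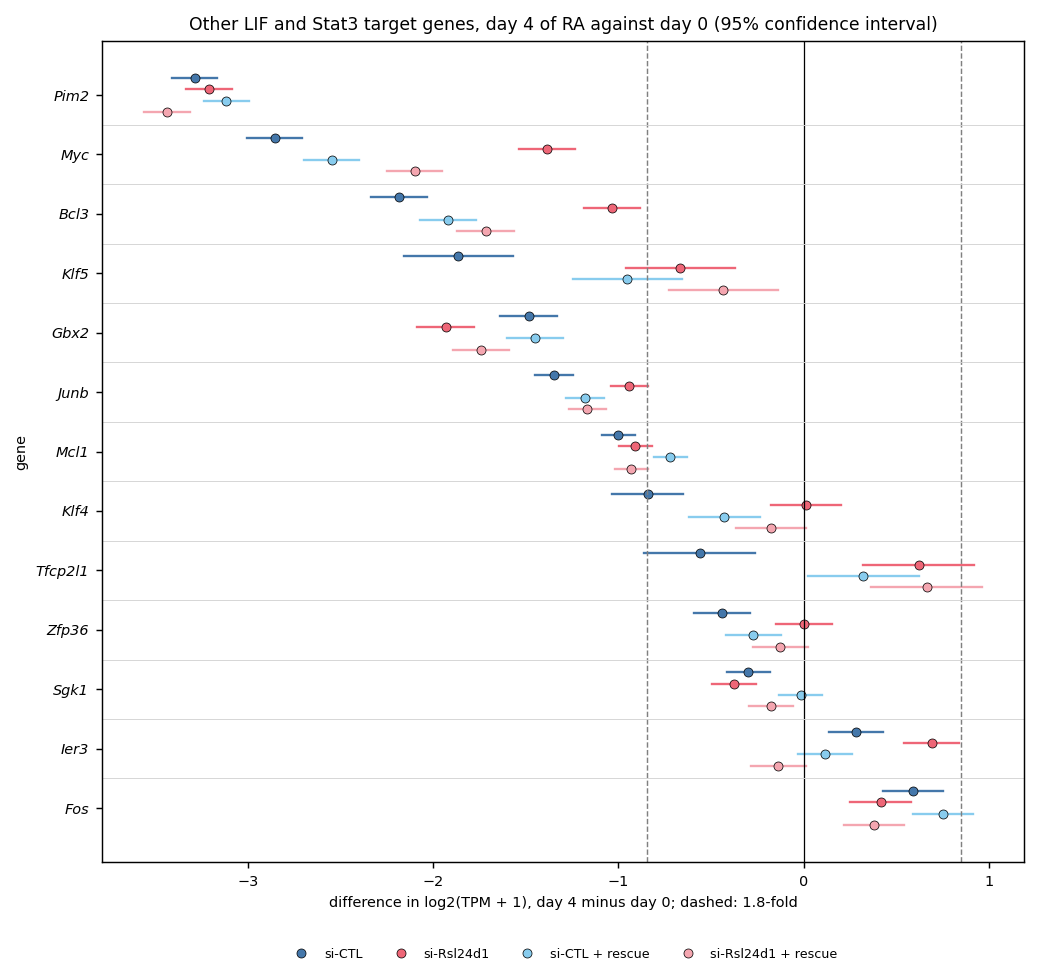
Difference in log2(TPM + 1) between day 4 and day 0 (horizontal axis) for 13 other LIF and Stat3 target genes (vertical axis, ordered by si-CTL) in 4 cell groups by colour; points are estimates from 3 against 3 libraries, lines are 95% confidence intervals and dashed lines mark 1.8-fold. Pim2 lies between -3.44 and -3.12 in the 4 groups, whereas Myc and Bcl3 fell less in si-Rsl24d1 cells (-1.39 and -1.04) than in si-CTL cells (-2.86 and -2.18).

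Across the 24 libraries, which share 8 group means and so are not independent points, Socs3 and Stat3 had a Pearson r of 0.93, Socs3 and Pim3 of 0.87, and Il6st and Jak1 of 0.92. Socs3 and Jak1 ran opposite (r = -0.86). Lif and Pim1 had r of -0.56, and Lifr had no r above 0.59 with any other member. Among all tested genes, those closest to Socs3 were Usf1, Ube2v1 and Icam1 (r = 0.993, 0.993 and 0.992), those closest to Stat3 were Ccm2, Wdr6 and Lasp1 (0.986, 0.986 and 0.984), and those closest to Il6st were Slc25a13, Myadm and Nudt4 (0.977, 0.974 and 0.972). Jak1 was most like Plekhh1 and Pja2 (0.991 and 0.988), and Pim3 most like Uhrf1, Lmnb2 and Anxa11 (0.984, 0.983 and 0.982). Pim1 was most like Esrrb, Gnpda1 and Psmd14 (0.968, 0.956 and 0.943), Lif most like Fam122b, Scmh1 and Trp53inp1 (0.948, 0.938 and 0.924), and Lifr most like Uaca, Cd276 and Sos1 (0.879, 0.878 and 0.873).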

How the data were processed

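RNA-seq was deposited as 1 table of log2(TPM + 1), which the authors made by aligning reads, quantifying them with Salmon and summing them per gene with tximport. The submitters' processing notes name STAR 2.7.8a and Salmon 1.4.0, and the methods give other versions and GRCm38. The notes list a human build, taken here as an error since symbols are those of mouse. Depth is unknown. Groups were taken from sample titles, 8 groups of 3 libraries. Genes with a mean of at least 0.5 were fitted with limma 3.58.1 in R 4.3.3 (8 group means, empirical Bayes with intensity trend), with Benjamini-Hochberg adjustment over 16447 genes within each of 16 comparisons, two-sided. The thresholds are an adjusted p of 0.01 and 1.8-fold on the log2(TPM + 1) scale, which understates changes of low genes. The script was tested on simulated data. Coordinates are from gencode vM21 and promoters from RefSeq GRCm38.p6. For each member, the 3 tested genes of highest Pearson r were named. Of the list of 54 genes, any gene called could be named. Some genes that these rules select are not reported here, though counts include them. The members and lists were chosen with earlier results of these data known. Alternatives were 0.1 or 2 added to TPM, no filter, a filter at 1.5, a fit of the compared groups alone, a block for the replicate number, scaling by the median of ratios, no fold threshold, and leaving out each library.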

Additional observations from a re-analysis of the deposited data

Results flagged for a closer look

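The siRNA difference changed between conditions, by a test of the change itself, in 8 cases among the 8 genes. Between days without rescue, it changed by 1.05 for Il6st, 0.62 for Stat3, 0.71 for Pim1 and 0.38 for Pim3, and between days with rescue by 0.35 for Pim1. Rsl24d1 itself changed by 1.91 and 0.65 in these tests between days, which thus do not compare the same depletion on both days. Between unrescued and rescued cells at day 4, where no knockdown of Rsl24d1 RNA was seen, it changed by -0.74 for Il6st, -0.47 for Stat3 and -0.38 for Socs3. The 5 changes between days kept an adjusted p below 0.01 in every fit without 1 library, and the 3 changes with rescue did not.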

How the results depend on the processing

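Of 44 member differences with an adjusted p below 0.01, none changed direction, 31 kept that p under all alternatives and fits without 1 library, and 13 lost it in at least 1, of which 11 in a fit without 1 library. Without the fold threshold, the genes counted were 6, 6, 7 and 5 for the day in si-CTL, si-Rsl24d1, rescued si-CTL and rescued si-Rsl24d1 cells, 4, 3 and 2 for the siRNA at day 0, day 4 and day 0 with rescue, 1, 1 and 1 for rescue in si-Rsl24d1 cells at day 0 and day 4 and in si-CTL cells at day 4, 4 and 1 for the change between days without and with rescue, and 3 for the change with rescue at day 4. Median of ratios scaling, which brought the median of all genes to about 0, gave 2 called genes for the day in rescued si-CTL cells, in place of 4. It turned the sign of Pim1 (-0.16) and Pim3 (-0.082) for the siRNA at day 4, Lifr (-0.018) for the siRNA at day 0 with rescue, Socs3 (0.032) for rescue at day 0 and Pim1 (0.019) at day 4 in si-Rsl24d1 cells, Pim3 (0.0018) for rescue at day 0 and Socs3 (-0.040), Pim1 (-0.083) and Pim3 (-0.086) at day 4 in si-CTL cells, and, for the change with rescue, Jak1 (-0.0044) at day 0 and Lif (0.0086), Pim1 (0.10) and Pim3 (0.059) at day 4. The cause of these turns was not tested beyond the shift of the median.

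Leaving out 1 library, the count called for the change with rescue at day 4 ran from 0 to 1. Values near 0 changed sign: for the siRNA at day 0, Lifr (-0.14 to 0.13) and Stat3 (-0.073 to 0.023), and with rescue Lifr (-0.10 to 0.14) and Stat3 (-0.12 to 0.019); at day 4, Pim1 (-0.029 to 0.067); for the day in si-Rsl24d1 cells, Lifr (-0.21 to 0.044); for rescue in si-Rsl24d1 cells at day 4, Lif (-0.088 to 0.28); for the change with rescue at day 0, Lif (-0.21 to 0.015), Lifr (-0.12 to 0.17), Jak1 (-0.075 to 0.079) and Stat3 (-0.083 to 0.057), and at day 4 Lif (-0.33 to 0.030). Fitting the compared groups alone moved the adjusted p past 0.01 for 11 differences, among them Stat3 for the siRNA at day 4 (0.0118). Replicate numbers are only shared labels: in 12 pairs of groups, none had all 3 correlations of same-numbered libraries above 0.1 (range -0.189 to 0.169). With the replicate block the counts called were the same, 2, 2, 4 and 2 for the day, 1 for the change between days without rescue and 0 elsewhere, and the adjusted p of Stat3 for the change with rescue at day 4 became 0.0148. TPM keep no depth, so precision rests on 3 libraries per group.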
